A study of Mus musculus with 5 samples.

Results

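The T cell receptor reaches the cell surface only as a complex of variable antigen-binding chains with the invariant CD3 signalling chains. The genes described here are 7 of its constant-region and CD3 members: Trac, Trbc1, Trbc2, Cd3e, Cd3d, Cd3g and Cd247. They were chosen by name and are 7 of 15952 genes with a unique molecular identifier (UMI, a tag that marks 1 captured molecule) in the cells kept. All 7 were measured, and all 7 passed the filter on low counts in the comparison of the injections. T cells were taken from the brain parenchyma, with the choroid plexus left out, of 3 mice given TAT-CRE recombinase, a cell-permeable Cre, into the brain ventricles (TAT-CRE 207, 208 and 215, aged 18, 18 and 19 weeks) and of 2 mice given PBS the same way (PBS 216 and 218, aged 19 and 16 weeks). All 5 mice carried the Grl1loxP/loxP alleles, in which the glucocorticoid receptor gene is flanked by loxP sites, all received electrical foot shocks, and all were sampled on day 14 after the stress. The intended target of the knockdown was the choroid plexus, which was not among the tissue sequenced. Cells were sorted 1 per well as CD45+, CD11b- and positive for the T cell receptor beta chain, so receptor protein on the surface was selected for. What was open to measurement was which beta segment a cell used, how much of each chain was counted, and whether these differed between cell types or injections. The labels do not say if a library holds more than 1 animal; each was taken as 1 mouse, and the p-values measure only the spread between these libraries.

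Most T cells carry a receptor of 1 alpha and 1 beta chain. The alpha chain ends in the single constant region Trac. The mouse beta locus holds a pair of constant segments, Trbc1 and Trbc2, each with its own cluster of joining segments upstream, so the joining segment used in rearrangement decides which constant segment is spliced on. CD3 epsilon (Cd3e) pairs with CD3 delta (Cd3d) and with CD3 gamma (Cd3g), and the zeta chain (Cd247) joins the complex as a homodimer. The cytoplasmic tails of these 4 chains carry the tyrosine motifs that the kinase Lck phosphorylates and to which the kinase Zap70 binds. The coreceptors Cd4 and Cd8, on separate lineages of mature T cells, bring Lck to the receptor.

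The members lie at 4 loci of the mouse genome build mm10 (GENCODE M21 annotation). Trac (ENSMUSG00000076928) lies on chromosome 14, 54220521 to 54224206, on the plus strand. Trbc1 (ENSMUSG00000076490) and Trbc2 (ENSMUSG00000076498) lie on the plus strand of chromosome 6, at 41538218 to 41539881 and 41546730 to 41548352, with 6848 bases between them. Cd3g (44969572 to 44980431, minus strand), Cd3d (44981786 to 44987339, plus strand) and Cd3e (44998740 to 45009627, minus strand) are neighbours on chromosome 9, and the start sites of Cd3g and Cd3d are 1354 bases apart on opposite strands. Cd247 lies on chromosome 1, 165788681 to 165877277, on the plus strand. In that annotation Cd3e and Cd247 overlap other genes, among them Gm48719 on the strand opposite to Cd3e and Pou2f1 on the strand opposite to Cd247. Whether counting used the strand is not given in the sources used here, so their counts may include reads of those genes.

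Whether Trbc1 and Trbc2 can be told apart depends on where the counted tags lie, and their sequences are shown for that reason. Both have 518 coding bases in 4 exons. The first 375 bases, which encode the bulk of the constant domain, differ at 1 position, C260A, counted from 1 at the first base of the constant segment with the Trbc1 base first. The remaining 143 coding bases, in exons 2 to 4, differ at 22 positions, an identity of 84.6%. The stretch around the difference in exon 1 (positions 241 to 280) and the spliced later exons (positions 376 to 518; chr6:41539114-41539662 for Trbc1 and chr6:41547610-41548178 for Trbc2, plus strand) follow 5′ to 3′, with the differing bases in capitals.
Trbc1, exon 1: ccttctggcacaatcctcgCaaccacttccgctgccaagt
Trbc2, exon 1: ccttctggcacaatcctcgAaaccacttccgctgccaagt
Trbc1, exons 2 to 4: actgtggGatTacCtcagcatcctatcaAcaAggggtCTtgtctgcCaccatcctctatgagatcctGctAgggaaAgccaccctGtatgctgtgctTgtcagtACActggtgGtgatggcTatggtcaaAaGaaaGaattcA
Trbc2, exons 2 to 4: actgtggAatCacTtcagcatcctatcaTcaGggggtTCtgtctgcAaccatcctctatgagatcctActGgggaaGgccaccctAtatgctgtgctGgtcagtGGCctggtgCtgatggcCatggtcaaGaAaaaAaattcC
The longest run that both share was 259 bases in the coding sequence and 20 bases within exons 2 to 4. The annotated transcripts go on for 219 bases in Trbc1 and 174 bases in Trbc2 after the coding part, and there they share no run longer than 8 bases. A read from exon 1 can thus fit both segments, while a longer read from the later exons or beyond carries differences. Which part the counted reads came from is not given in the deposited counts.

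After wells with 1 cell, at least 400 UMIs and at most 30% mitochondrial UMIs were kept, 1482 of 1900 cells remained, 912 from TAT-CRE and 570 from PBS mice, with 274 to 311 per mouse. The median depth was 1953, 993 and 1600.5 UMIs per cell in TAT-CRE 207, 208 and 215, against 1410 and 2660 in PBS 216 and 218. TAT-CRE 208 stood apart as the shallowest library and had 28.3% of its UMIs from ribosomal RNA genes, against 43.9% to 48.0% in the other 4. No well or barcode was shared between libraries. T cell genes outside the members (Cd2, Cd5, Thy1, Lck and Lat) had a UMI in 74.6% of cells. Of the markers of other cells, 4 of 7 B cell genes had a UMI, in 9.04% of cells, led by Ighm in 115 cells, while Cd79a and Ebf1 had none. Among myeloid genes 4 of 7 had one, in 4.72% of cells, led by Cst3 in 65 cells, while Lyz2, Csf1r and C1qb had none. Among oligodendrocyte genes 3 of 4 had one, in 8.37% of cells, led by Mbp in 122 cells, while Mog had none.

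Although every cell was sorted on receptor protein, each chain's transcript was found in only part of the cells. Over all kept cells Trac had a UMI in 600 cells (40.5%, exact 95% interval 38.0 to 43.0), Trbc1 in 412 (27.8%, 25.5 to 30.2) and Trbc2 in 819 (55.3%, 52.7 to 57.8). Cd3d had one in 461 cells (31.1%, 28.8 to 33.5), Cd3e in 384 (25.9%, 23.7 to 28.2), Cd3g in 363 (24.5%, 22.3 to 26.8) and Cd247 in 151 (10.2%, 8.70 to 11.8). These intervals, like all others here, cover counting error only. Cells with a UMI usually held few of them. Trac, Trbc1 and Trbc2 had a median of 3 UMIs in such cells and up to 22, 31 and 38, while the 4 CD3 chains had a median of 2 and up to 15. No member was found in 154 cells (10.4%, 8.88 to 12.1), which had a median of 992 UMIs, and all 7 were found in 1 cell. The share of cells without any member was 19.2% among cells of 400 to under 1000 UMIs and 0.730% among the 137 cells with 4000 or more. The 20 wells that received no cell held 17 to 160 UMIs each, and 5 of them held a member (6 member UMIs of 1095 in all). No sorted cell type should lack the receptor, so these wells are the only measure of background here.

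None of the 7 chains passed the test for a change between the injections over all T cells. Of 6341 genes tested on UMIs summed per mouse, edgeR's quasi-likelihood test called 0 (percent called 0) at an adjusted p of 0.05, and 240 had an unadjusted p under that value; DESeq2 called 1 gene (0.0158%), which was no member. A sum per mouse does not tell fewer cells with a transcript from fewer transcripts per cell. Among the antigen-binding chains, Trac had 673, 753 and 711 CPM in TAT-CRE 207, 208 and 215, against 847 and 657 CPM in PBS 216 and 218, where CPM are the UMIs of the gene per 1000000 UMIs of the cells of that mouse. The groups overlapped, with a log2 fold change of -0.16 ± 0.22 (SE) and an edgeR adjusted p of 0.999. Trbc2 had 1137, 1360 and 1044 CPM in the TAT-CRE mice, against 1377 and 1285 CPM in the PBS mice. TAT-CRE 208 lay between the PBS mice, and the log2 fold change was -0.27 ± 0.18 (edgeR adjusted p = 0.999). Outside the ribosomal RNA genes, Trbc2 stood at 2001 ± 100 CPM with TAT-CRE (SD, n = 3) and 2414 ± 175 CPM with PBS (SD, n = 2), and each TAT-CRE mouse was below both PBS mice. On that scale 9.39% of 6337 genes had every TAT-CRE mouse below every PBS mouse and 9.29% had every one above.

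The level of Trbc1 spread widely between mice. It had 335, 1013 and 576 CPM in TAT-CRE 207, 208 and 215, against 614 and 433 CPM in PBS 216 and 218. The lowest and the highest value were both in TAT-CRE mice, and the log2 fold change was 0.14 ± 0.31 (edgeR adjusted p = 0.999). Without TAT-CRE 208 it was -0.12.

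The CD3 chains, which carry the signal into the cell, were not called either. Cd3e had 367, 353 and 231 CPM in TAT-CRE 207, 208 and 215, against 263 and 238 CPM in PBS 216 and 218. TAT-CRE 215 was below both PBS mice and the other TAT-CRE mice above them. Its log2 fold change was 0.25 ± 0.26, and 0.05 without TAT-CRE 207. By cells with a UMI, computed for 400 UMIs drawn from each cell, Cd3e was found in 12.2%, 9.47% and 8.75% of cells in TAT-CRE 207, 208 and 215, against 7.72% and 7.54% in PBS 216 and 218, so on this measure the groups did not overlap. Among all genes tested, 9.76% had every TAT-CRE mouse above every PBS mouse on this measure and 8.61% had every one below. Cd3d stood at 403 ± 31.2 CPM with TAT-CRE and 415 ± 62.9 CPM with PBS, and Cd3g at 326 ± 72.5 CPM and 341 ± 15.4 CPM (SD, n = 3 and n = 2). Their log2 fold changes were -0.12 ± 0.23 and -0.16 ± 0.24. Cd247, the zeta chain, had 139, 110 and 107 CPM in the TAT-CRE mice, against 86.5 and 82.2 CPM in the PBS mice. Each TAT-CRE mouse was above both PBS mice, but these values rest on 40 to 96 UMIs per mouse. The log2 fold change of 0.44 ± 0.34 did not pass the test (edgeR adjusted p = 0.999). Among all genes tested, 10.3% had every TAT-CRE mouse above every PBS mouse in CPM and 7.22% had every one below, so 1 such gene among 7 is near the background. At 400 UMIs per cell Cd247 was found in 4.30 ± 0.505% of cells with TAT-CRE and 2.61 ± 0.307% with PBS, again without overlap. Outside the ribosomal RNA genes its values in the groups overlapped (205 ± 51.0 CPM with TAT-CRE and 153 ± 9.12 CPM with PBS). The median log2 fold change of the 7 members was -0.12, beside 0.00232 for all genes tested, and 3 of 7 were positive, beside 3182 of 6341.

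**Figure D1:**
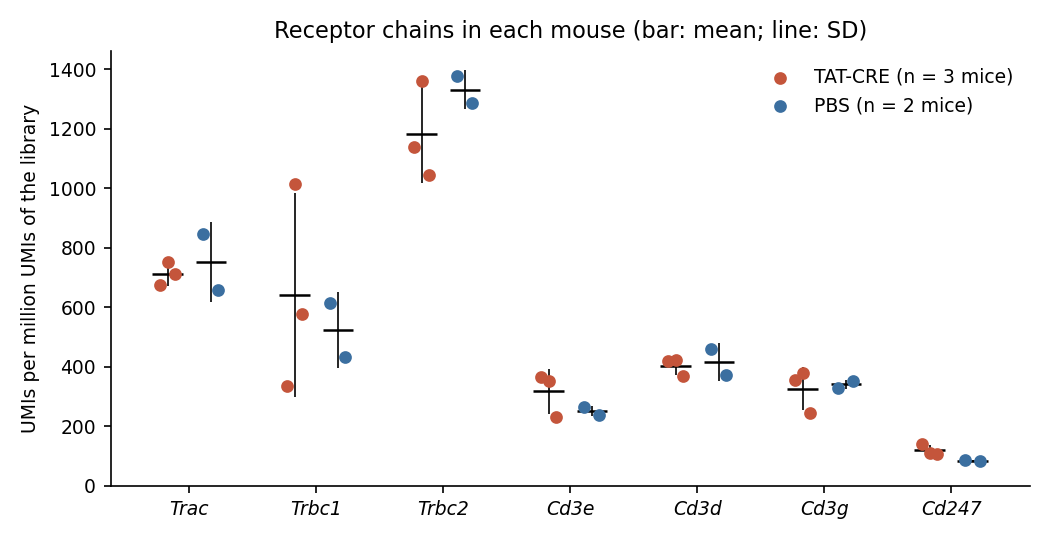
CPM (vertical axis) of each receptor gene (horizontal axis) in each mouse, TAT-CRE in red left of PBS in blue; the short bar is the group mean and the line the SD. Points of both groups intermix for each gene except Cd247, and Trbc1 is widest, with 335 to 1013 CPM within the TAT-CRE mice.

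The same comparison within cells that had a Cd8a or Cd8b1 UMI and no Cd4 UMI (hereafter Cd8 cells) was made on 174, 76 and 125 cells of TAT-CRE 207, 208 and 215, against 134 and 121 of PBS 216 and 218. Again no gene was called (0 of 4013 tested, percent called 0; 123 had an unadjusted p under 0.05; DESeq2 called 0). The log2 fold changes of TAT-CRE over PBS ran from -0.21 ± 0.20 (SE) for Trbc2 to 0.77 ± 0.55 for Cd247. Of the members 4 of 7 were positive, beside 1988 of 4013 genes tested. The Cd247 value rests on 7 to 54 UMIs per mouse.

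Trbc2 was found more often than Trbc1 in every mouse. Cells were put in 4 classes by their own UMIs: 177 had Trbc1 only (11.9%, exact 95% interval 10.3 to 13.7), 584 had Trbc2 only (39.4%, 36.9 to 42.0), 235 had both (15.9%, 14.0 to 17.8) and 486 had neither (32.8%, 30.4 to 35.2). Trbc2-only cells outnumbered Trbc1-only cells 5.18, 1.76 and 2.71 to 1 in TAT-CRE 207, 208 and 215, against 3.82 and 4.58 to 1 in PBS 216 and 218. Among cells with a single segment, Trbc1 was that segment in 16.2% (11.0 to 22.5), 36.2% (28.2 to 44.8) and 27.0% (20.1 to 34.8) of the TAT-CRE mice's cells, against 20.7% (14.8 to 27.8) and 17.9% (11.8 to 25.5) of the PBS mice's. The intervals of TAT-CRE 207 and 208 do not meet, while those of the PBS mice do. Counted by molecules, Trbc1 gave 1642 of the beta constant-segment UMIs and Trbc2 gave 3736, so Trbc1 took 30.5%, with 22.8%, 42.7% and 35.6% in TAT-CRE 207, 208 and 215, against 30.9% and 25.2% in PBS 216 and 218.

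Because a deeper cell shows more segments, the classes were also computed for 400 UMIs drawn from each cell. The shares over all cells then became 9.86% Trbc1-only, 26.4% Trbc2-only, 4.24% double and 59.6% neither. The Trbc1 share of single-segment cells was 29.4 ± 8.53% with TAT-CRE (SD, n = 3) and 23.4 ± 1.42% with PBS (SD, n = 2), with 20.7%, 37.8% and 29.7% in TAT-CRE 207, 208 and 215. The groups overlapped (two-sided exact permutation p = 0.5; 3 against 2 mice cannot go below 0.1), and the difference of 6.03 percentage points was 1.84 without TAT-CRE 208. Double cells made up 4.30 ± 2.12% with TAT-CRE and 4.16 ± 0.944% with PBS (exact permutation p = 0.9), and cells with either segment 40.1 ± 4.02% and 41.0 ± 6.08% (exact permutation p = 0.7). Across the depth of cells as counted, the Trbc1 share of single-segment cells was 25.9% at 400 to under 1000 UMIs and 22.6% at 1000 to under 2000. It was 24.8% at 2000 to under 4000 and 13.2% at 4000 or more, the last from 76 single-segment cells. These bins pool mice that differ in depth and in Trbc1 share, so depth and mouse are not separated in them.

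**Figure D2:**
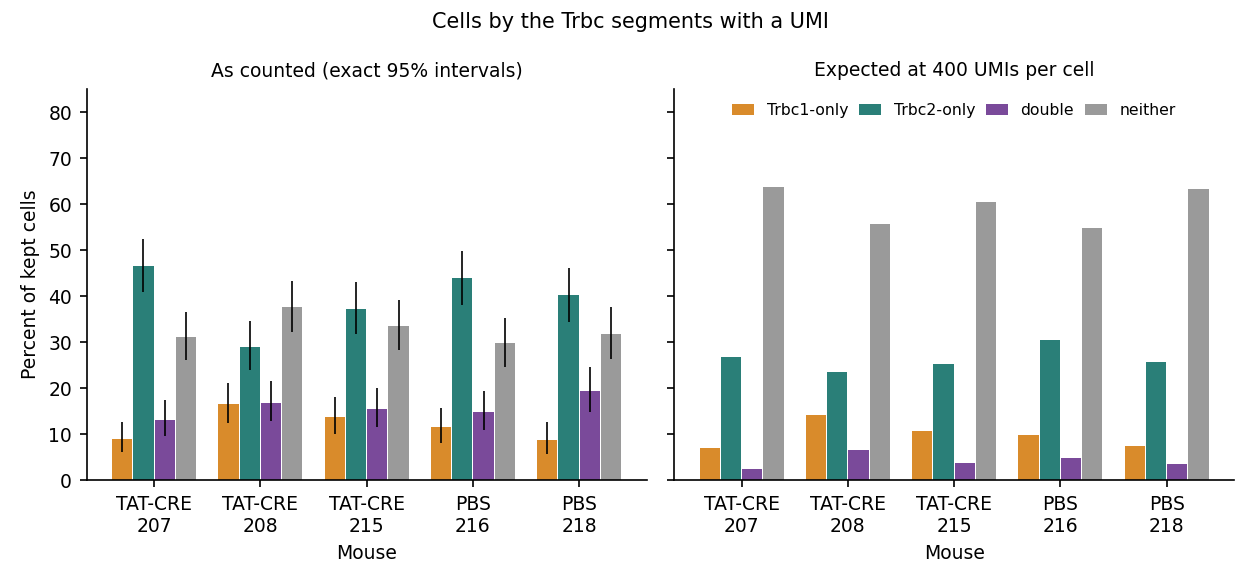
Percent of kept cells (vertical axis) in each Trbc class for each mouse, as counted with exact 95% binomial intervals (left) and computed at 400 UMIs per cell (right). Trbc2-only bars exceed Trbc1-only bars in every mouse and least so in TAT-CRE 208, where Trbc1-only cells were 16.5% and Trbc2-only cells 29.0% as counted.

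Whether one beta segment kept the other out of the counts was asked by comparing how often Trbc1 was found in cells with and without Trbc2. Trbc1 had a UMI in 28.7% of cells with Trbc2 and in 26.7% of cells without it. At 400 UMIs per cell the shares were 13.9% and 14.2%. Over the 5 mice the difference at 400 UMIs was -0.375 ± 1.85 percentage points (SD, n = 5; two-sided exact sign-flip permutation p = 0.688, smallest possible 0.063), negative in 3 of 5 mice. The coreceptors, measured the same way, gave a larger difference: a Cd8 UMI was less frequent in cells with Cd4 than in cells without it by 18.8 ± 6.43 percentage points at 400 UMIs (SD, n = 5), in 5 of 5 mice, with the smallest p the test can give (exact sign-flip permutation p = 0.063). As counted, the Cd8 difference was -22.5 ± 16.1 percentage points, with PBS 218 at 3.10 and the other 4 mice below 0 (exact sign-flip permutation p = 0.125).

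In many double cells both segments had several UMIs. In 109 of 235 double cells (46.4%) the lesser segment had 1 UMI, in 126 it had 2 or more and in 35 it had 5 or more. Trbc1 was the greater in 86, Trbc2 in 118, and 31 had equal counts. Cells in which Trbc1 and Trbc2 together had at least 10 UMIs show the balance best. Of these 161 cells, 13 had Trbc1 alone, 59 had Trbc2 alone and 89 had both, and in 61 of them each segment gave 20% to 80% of the UMIs. Double cells were the deepest class, with a median of 2293 UMIs, against 1583 in Trbc1-only, 1853.5 in Trbc2-only and 1233 in neither cells. Their share was 8.13% of cells of 400 to under 1000 UMIs, 12.8% at 1000 to under 2000, 20.3% at 2000 to under 4000 and 34.3% at 4000 or more. The parts played in these counts by near-identical exon 1 reads, by a second cell in a well, by RNA passing between wells and by transcripts of a second allele were not tested.

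**Figure D3:**
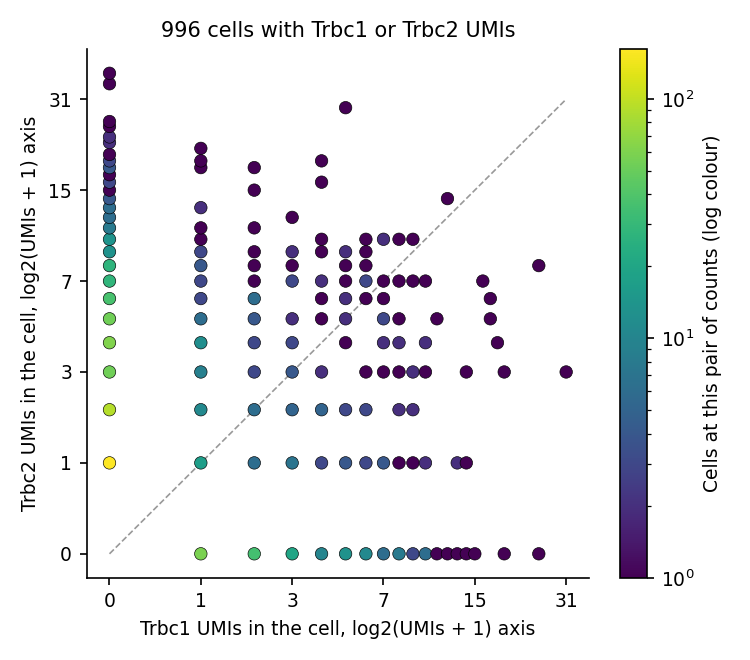
Trbc1 UMIs (horizontal axis) against Trbc2 UMIs (vertical axis) of the 996 cells with either, both on log2(UMIs + 1) axes; each point is a pair of counts, its colour the number of cells on a log scale, and the dashed line marks equal counts. Cells on an axis hold 1 segment, and the 235 double cells spread between the axes, with 35 of them at 5 or more UMIs of both.

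Joining segments, which precede the constant segment in the transcript, were counted too rarely to class cells. Of 254 rows for variable, diversity and joining segments, 63 had a UMI, with 474 UMIs over 168 cells (11.3%). The Trbj1 cluster, which lies upstream of Trbc1, had a UMI in 10 cells, of which 4 were Trbc1-only, 2 Trbc2-only and 4 double. The Trbj2 cluster, between Trbc1 and Trbc2, had one in 9 cells, of which 1 was Trbc1-only, 6 Trbc2-only, 1 double and 1 had neither. Within the Trbj1 cluster, Trbj1-1 was seen in 6 cells, 4 of them Trbc1-only and 2 double. Trbj1-2 was seen in 4 cells, 2 of them Trbc2-only and 2 double. The alpha joining segments gave the most UMIs, 229 over 77 cells, led by Traj18 with 50 UMIs in 19 cells of all 5 mice. Among the beta variable segments, Trbv12-2 had 29 UMIs in 13 cells and Trbv13-2 had 20 in 15 cells. Gamma and delta chain genes were present at low levels, also in cells with a Trbc UMI. Trdc had a UMI in 4 cells, 2 of them with a Trbc UMI, and Tcrg-C2 in 106 cells, 80 of them with a Trbc UMI and 67 of them Cd8 cells.

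The lineage of the cells was read from their coreceptor UMIs: 630 were Cd8 cells (42.5%), 85 had Cd4 and no Cd8 (5.74%, Cd4 cells), 25 had both and 742 had neither. Per mouse, Cd4 cells numbered 22, 19 and 23 in TAT-CRE 207, 208 and 215, against 13 and 8 in PBS 216 and 218, so values in them are coarse. Of 1738 genes tested between Cd8 and Cd4 cells with the mouse as a block, edgeR called 6 (0.345%), each higher in Cd8 cells: Ccl5, Ly6c2, Ms4a4b, Nkg7, Rpl32 and Epsti1. Ccl5, a chemokine of effector and memory CD8 T cells, stood at 3175 ± 774 CPM in Cd8 cells and 715 ± 375 CPM in Cd4 cells (SD, n = 5), a log2 fold change of 2.46 ± 0.20 (SE; edgeR adjusted p = 1.54e-13). Nkg7, a cytotoxic granule protein, stood at 669 ± 75.3 CPM and 257 ± 105 CPM (log2 fold change 1.63 ± 0.33; edgeR adjusted p = 0.00382). No member was among the 6. DESeq2 called 3 genes (0.173%), 2 higher and 1 lower in Cd8 cells. With another scaling (RLE) edgeR called 5 (0.288%), 4 higher and 1 lower. The fit without the block called 2, and the count was 2 without TAT-CRE 215, PBS 216 or PBS 218, and 17 without TAT-CRE 208.

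Of the members, Trbc1 stood lower and Cd3e and Cd3d stood higher in Cd8 than in Cd4 cells of every mouse, although none passed the test over all genes. Trbc1 had 175, 1109 and 644 CPM in Cd8 cells of TAT-CRE 207, 208 and 215 and 519 and 386 CPM in those of PBS 216 and 218, against 374, 1394 and 792 CPM and 1231 and 1277 CPM in Cd4 cells of the same mice. The Cd8 value was the lower one in 5 of 5 mice, with a log2 fold change of -0.66 ± 0.25 (SE; unadjusted p = 0.0111, edgeR adjusted p = 0.382). This value depended on the settings. It was -0.94 with RLE scaling (edgeR adjusted p = 0.0766) and -0.95 with DESeq2 (DESeq2 adjusted p = 0.0794). Without a filter on low counts it was -0.15 (edgeR adjusted p = 0.882). Cd3e stood at 289 ± 55.7 CPM in Cd8 cells and 178 ± 101 CPM in Cd4 cells (SD, n = 5), with a log2 fold change of 1.02 ± 0.49 (edgeR adjusted p = 0.565), and Cd3d at 438 ± 46.4 CPM and 316 ± 107 CPM, with one of 0.76 ± 0.36 (edgeR adjusted p = 0.555). Among all genes tested, 4.60% were higher in Cd8 cells of 5 of 5 mice and 1.90% lower. Cd4 cells held 169 Trbc1, 38 Cd3e and 63 Cd3d UMIs in all. Their Trbc1 UMIs came from few cells: 11 Trbc1-only and 15 double cells of 85, beside 66 and 114 of 630 Cd8 cells. In PBS 216 these were 1 Trbc1-only and 2 double Cd4 cells, and in PBS 218 they were 1 and 3.

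The remaining members were not on one side in every mouse. Trac stood at 755 ± 167 CPM in Cd8 and 552 ± 188 CPM in Cd4 cells and was higher in Cd8 cells of 4 of 5 mice (log2 fold change 0.67 ± 0.28, edgeR adjusted p = 0.456). Trbc2 stood at 1298 ± 228 CPM and 1183 ± 177 CPM, and Cd3g at 350 ± 46.0 CPM and 315 ± 125 CPM (SD, n = 5). Cd247 ran from 57.3 to 126 CPM in Cd8 cells and from 56.6 to 516 CPM in Cd4 cells, where it rests on 37 UMIs. In this contrast the median gene had a log2 fold change of 0.30 under the main scaling (TMM) and 0.02 under another (RLE). Relative to the median gene, the main values were -0.96 for Trbc1, -1.25 for Cd247, 0.09 for Trbc2 and 0.14 for Cd3g. They were 0.37 for Trac, 0.46 for Cd3d and 0.72 for Cd3e. A change of scaling moves all genes nearly alike, so it cannot test the direction of these relative values. The median of the 7 members was 0.43, beside 0.30 for all genes.

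**Figure D4:**
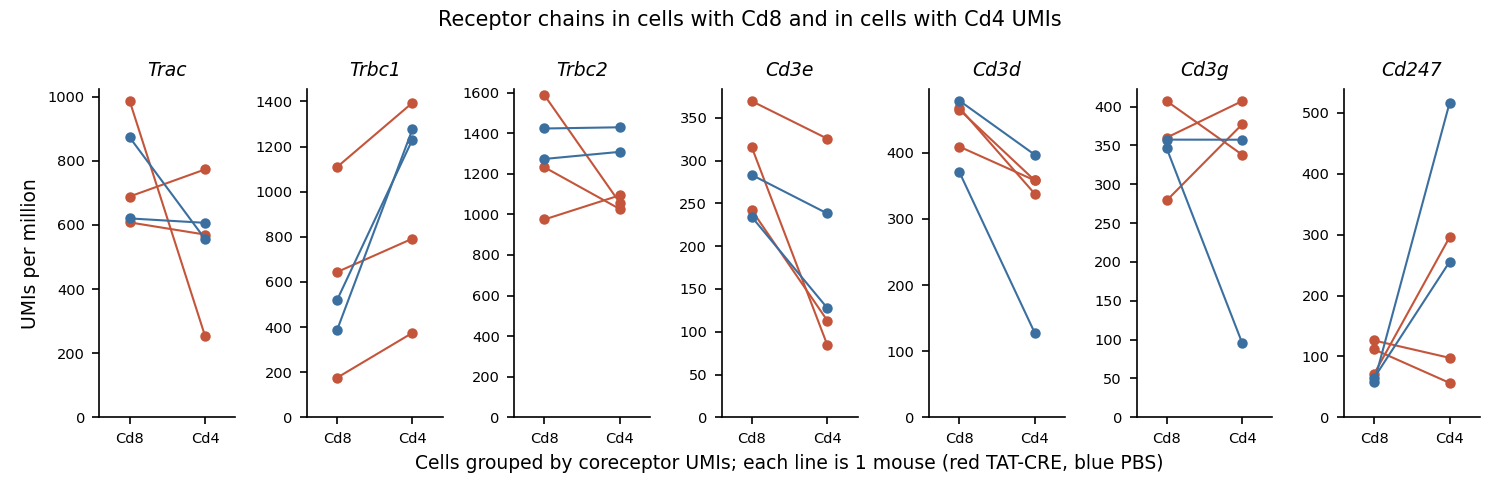
CPM (vertical axis, from 0 in each panel) of each member in Cd8 cells and Cd4 cells; each line joins the values of 1 mouse, TAT-CRE in red and PBS in blue. The lines of Trbc1 go up from Cd8 to Cd4 cells in all 5 mice and those of Cd3e and Cd3d go down, while the other 4 genes cross.

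By cells instead of molecules, Trbc1 was the single segment in 66 of 350 single-segment Cd8 cells (18.9%, exact 95% interval 14.9 to 23.4). It was that segment in 11 of 41 Cd4 cells (26.8%, 14.2 to 42.9) and in 98 of 356 cells without a coreceptor UMI (27.5%, 22.9 to 32.5). These shares pool mice that differ in Trbc1 share. Mouse by mouse, the Cd8 share was well below the no-coreceptor share for TAT-CRE 207 (8.74% against 28.3%). The gap was smaller for PBS 216 (19.5% against 22.7%) and PBS 218 (14.8% against 21.2%). For TAT-CRE 215 the shares were nearly equal (27.7% against 27.6%), while TAT-CRE 208 had the higher share among Cd8 cells (38.2% against 34.7%). This comparison was not tested. Cd8 minus Cd4, the mean difference over the mice was -5.80 ± 17.8 percentage points (SD, n = 5; two-sided exact sign-flip permutation p = 0.5), negative in 3 of 5. Cd4 cells had only 4 to 12 single-segment cells in a mouse, so a moderate difference was not detectable at this depth. Double cells were 18.1% (15.2 to 21.3) of Cd8 cells, 17.6% (10.2 to 27.4) of Cd4 cells and 13.3% (11.0 to 16.0) of cells without a coreceptor UMI, whose median depth was 1985.5, 1717 and 1315.5 UMIs.

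The coreceptors were also counted within the Trbc classes. As counted over the pooled cells of all mice, Cd8 cells made up 37.3% (30.2 to 44.9) of Trbc1-only and 48.6% (44.5 to 52.8) of Trbc2-only cells. They made up 48.5% (42.0 to 55.1) of double and 34.2% (29.9 to 38.6) of neither cells. These intervals leave out the spread between mice. Cd4 cells made up 6.21%, 5.14%, 6.38% and 5.97% of the same classes. Per mouse, the as-counted share with any Cd8 UMI in Trbc1-only minus Trbc2-only cells was -36.1, -0.136 and 4.00 percentage points in TAT-CRE 207, 208 and 215. It was -2.44 and -12.5 percentage points in PBS 216 and 218. The mean was -9.44 ± 16.1 percentage points (SD, n = 5, two-sided exact sign-flip permutation p = 0.3125). With the classes kept as counted and Cd8 computed at 400 UMIs per cell, the share with a Cd8 UMI was 19.6% in Trbc1-only and 26.5% in Trbc2-only cells. At that depth the difference over the mice was -5.87 ± 6.19 percentage points (SD, n = 5, two-sided exact sign-flip permutation p = 0.125), negative in 4 of 5. TAT-CRE 207 had the largest difference, -15.6 percentage points, and without that mouse the mean was -3.44.

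No gene passed the test between Trbc1-only and Trbc2-only cells (0 of 1894 called, percent called 0; 74 had an unadjusted p under 0.05; DESeq2 called 0). Cd3e was the member that stood furthest apart. It had 177, 284 and 220 CPM in Trbc1-only cells of TAT-CRE 207, 208 and 215 and 45.0 and 94.6 CPM in those of PBS 216 and 218, against 348, 387 and 226 CPM and 250 and 257 CPM in Trbc2-only cells. It was lower in Trbc1-only cells of 5 of 5 mice, by very little in TAT-CRE 215, as were 3.59% of all genes tested (3.22% were higher in 5 of 5 mice). The log2 fold change was -1.04 ± 0.36 (SE; unadjusted p = 0.0124, edgeR adjusted p = 0.975), from 57 Cd3e UMIs in Trbc1-only and 367 in Trbc2-only cells. Cd8a, at 321 ± 149 CPM in Trbc1-only and 567 ± 109 CPM in Trbc2-only cells (SD, n = 5), had the smallest unadjusted p of all genes tested (0.00326) and a log2 fold change of -0.96 ± 0.27 (edgeR adjusted p = 0.975). Cd8a was the lower one in Trbc1-only cells of 4 of 5 mice. The part of the coreceptor makeup in the Cd3e values was not tested. The Cd3e difference was -171, -104 and -5.5 CPM in TAT-CRE 207, 208 and 215, and -205 and -162 CPM in PBS 216 and 218. In the same order, the share with a Cd8 UMI at 400 UMIs differed by -15.6, -3.99, -2.05, 0.14 and -7.87 percentage points. The Trbc1-only value of PBS 216 rests on 3 Cd3e UMIs. Trac stood at 771 ± 422 CPM and 686 ± 130 CPM, Cd3d at 447 ± 263 CPM and 387 ± 63.7 CPM, Cd3g at 287 ± 173 CPM and 352 ± 43.2 CPM and Cd247 at 89.7 ± 47.9 CPM and 96.3 ± 45.3 CPM in Trbc1-only and Trbc2-only cells (SD, n = 5). None of these 4 was lower, or higher, in all 5 mice.

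**Figure D5:**
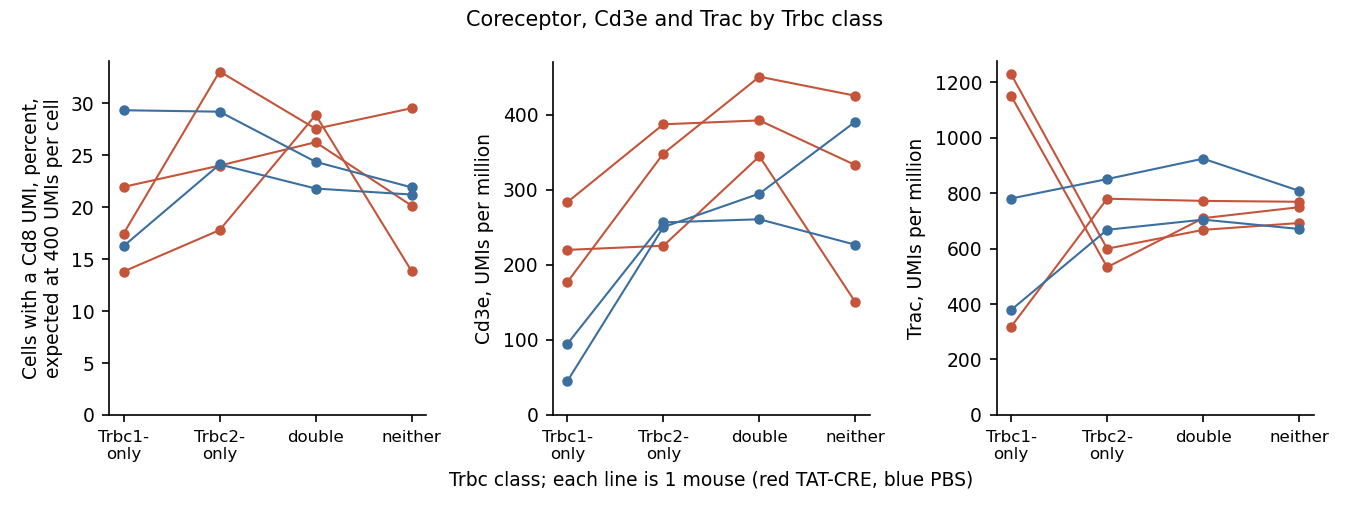
Percent of cells with a Cd8a or Cd8b1 UMI computed at 400 UMIs per cell (left), and Cd3e (middle) and Trac (right) in CPM. The 4 Trbc classes are as counted, and each line joins the classes of 1 mouse, TAT-CRE in red and PBS in blue. Cd3e is lower in Trbc1-only than in Trbc2-only cells of all 5 mice, and Trac diverges most between mice in Trbc1-only cells, from 318 to 1229 CPM.

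Cells in which neither beta segment was found still carried the other chains. Between the 996 cells with a Trbc UMI and the 486 without, 0 of 4299 genes were called (percent called 0; 180 had an unadjusted p under 0.05; DESeq2 called 0). The log2 fold change of Trbc-detected over undetected cells was 0.01 ± 0.12 (SE) for Trac, 0.01 ± 0.21 for Cd3e, 0.19 ± 0.16 for Cd3d, -0.07 ± 0.18 for Cd3g and -0.40 ± 0.37 for Cd247, beside a median of 0.12 over all genes. Marker shares were computed at 400 UMIs per cell with the Trbc classes kept as counted. T cell genes outside the members then had a UMI in 44.2%, 44.4% and 46.3% of Trbc1-only, Trbc2-only and double cells and in 43.5% of neither cells. At the same depth, gamma-delta chain genes were found in 3.89%, 5.75% and 2.40% of the 3 classes with a segment, in the same order, and in 3.37% of neither cells. Natural killer markers were found in 4.13%, 3.78% and 5.93% of them and in 3.24% of neither cells, also at 400 UMIs per cell. As counted over all kept cells, this list was led by Eomes in 65 cells and Klre1 in 37, while Tyrobp was in 4 and Ncr1 in 1.

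No gene around the receptor passed the test between the injections either. All 24 genes of the proximal signalling list (Lck, Fyn, Zap70, Lat and others) were tested, and 0 were called in either direction. Their median log2 fold change was 0.00383, beside 0.00232 for all genes. Zap70, the kinase that docks on the phosphorylated CD3 and zeta tails, had the smallest p of the list, at 79.6 ± 37.8 CPM with TAT-CRE and 152 ± 11.0 CPM with PBS (SD, n = 3 and n = 2; log2 fold change -1.06 ± 0.37, unadjusted p = 0.0130, edgeR adjusted p = 0.999). Of the costimulatory receptor gene Cd28 the levels were 166 ± 34.9 CPM and 108 ± 7.80 CPM (log2 fold change 0.52 ± 0.29). Of 9 transcription factors known to act at the receptor loci, 8 were tested and 0 called, with Tcf12 (HEB) at 79.3 ± 7.20 CPM with TAT-CRE and 22.2 ± 14.5 CPM with PBS (log2 fold change 1.79 ± 0.53, unadjusted p = 0.00522, edgeR adjusted p = 0.999). Of 11 gamma-delta and other chains, 7 were in the files, 3 were tested and 0 called. Fcer1g is a signalling adaptor of Fc receptors that can stand in for the zeta chain. It was at 6.38 ± 1.67 CPM with TAT-CRE and 39.6 ± 25.6 CPM with PBS (log2 fold change -2.71 ± 0.82, unadjusted p = 0.00570, edgeR adjusted p = 0.999). These values rest on 60 Fcer1g UMIs in 18 cells over all kept cells. The list of 6 natural killer markers, which holds Fcer1g, summed to 140.1, 93.8 and 40.8 CPM in TAT-CRE 207, 208 and 215, against 276 and 179.9 CPM in PBS 216 and 218, and its part in the Fcer1g values was not tested.

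In the contrasts within mice, too, 0 genes of the 3 lists were called. Between Cd8 and Cd4 cells 15 proximal signalling genes were tested, with a median log2 fold change of 0.13 beside 0.30 for all genes, and Lck, whose product binds both coreceptors, had 0.73 ± 0.37 (SE; edgeR adjusted p = 0.603). Between Trbc1-only and Trbc2-only cells 19 were tested, with a median of -0.25 beside -0.16 for all genes, and the factor Tcf7 of naive and memory cells had -0.92 ± 0.28 (unadjusted p = 0.00551, edgeR adjusted p = 0.975).

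Within single cells, pairs of members were also compared. Over 1482 cells the correlation of any pair, on log values centred within each mouse, ran from -0.05 (Trac with Cd247) to 0.08 (Cd3e with Cd3g), which in counts this sparse is no finding. Over the summed Cd8, Cd4 and no-coreceptor cells of the 5 mice (15 points, which share mice and libraries), the genes most like the summed CD3 chains among 1012 compared were Gm42418 (r = 0.90), Abracl (0.90), Gramd3 (0.88), Ndfip1 (0.87) and Mier1 (0.86), of which Gm42418 is among the ribosomal RNA genes. Among the 5 most like the sum of Trac, Trbc1 and Trbc2 were Rps9 (r = 0.82), Actr2 (0.82), Shisa5 (0.79) and Rpl14 (0.77).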

How the data were processed

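The authors deposited UMI counts per gene and well, with a column of counts giving the cells sorted into each well. The submitters' processing notes name bcl2fastq 2.15.0.4 and the build mm10. The sources used here do not give the aligner, annotation, multi-mapping rule or strand setting. Per the labels' protocols, RNA was barcoded per well, pooled and amplified linearly. Each mouse had its own plate and amplification batch, all in 1 sequencing batch, so plate and mouse cannot be told apart.

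From these counts, wells with 1 cell, 400 or more UMIs other than spike-ins and no more than 30% mitochondrial UMIs were kept (1482 cells; 362457 to 839188 UMIs per mouse). Doublets were not called. UMIs were summed per mouse, lineage or Trbc class and tested with edgeR 4.0.16 (R 4.3.3; TMM, filterByExpr, quasi-likelihood, Benjamini-Hochberg over all genes), with the mouse as a block in contrasts within mice, since both sums come from the same animal; genes that define a contrast were left out of its adjustment. The fits were tested on simulated data. DESeq2 1.42.0 was an alternative. Shares were computed for 400 UMIs drawn without replacement and tested by exact permutation over mice; intervals are Clopper-Pearson (scipy 1.17.1). Named were the 7 members, up to 4 genes of smallest p per list and up to 10 called genes. The members, lists and rules were chosen with earlier results of these data known. Alternatives were other scalings, filters and UMI limits, no ribosomal RNA genes, no block and each mouse left out; those for the Cd8 share by Trbc class and the co-detection of Trbc1 with Trbc2 and Cd8 with Cd4 were chosen after seeing the data. A few genes of the lists and rankings are not reported here.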

Additional observations from a re-analysis of the deposited data

Results flagged for a closer look

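The difference in Cd247 between Trbc1-only and Trbc2-only cells was 111 CPM in TAT-CRE 208 and lay between -51.9 and -17.4 CPM in the other 4 mice. The gap to the nearest mouse took 0.789 of the whole range, above the value of 0.710 that singles out a sample among 5 at the 95% level. It rests on 10 and 5 Cd247 UMIs. Of 16 such sets of 5 mice examined, this was the 1 that passed, and chance gives about 1 in 20.

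Wells that received no cell held receptor transcripts. The 20 empty wells gave 6 UMIs of the 7 members: 2 of Trac and 1 each of Trbc1, Trbc2, Cd3e and Cd3g, above the 3 that a count of 0 allows. That is 0.548% of their 1095 UMIs (exact 95% interval 0.201 to 1.19), beside 0.361% (0.354 to 0.368) of the UMIs of kept cells.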

How the results depend on the processing

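The depth limits these results: every member but Trbc2 was missed in most cells, Cd247 rests on 40 to 96 UMIs per mouse, and Cd4 cells number 8 to 23 per mouse. No paired analysis was possible between TAT-CRE and PBS because the mice share no replicate number; in the contrasts within mice the mouse was the block. Of 509 values under alternatives, 446 kept their direction and their side of the threshold, or stayed within 1.5 times for a count, and no member was called under any of them. For the results that did not, the cause was not tested.

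Counts of called genes moved with the filter: without a filter on low counts 8 genes were called for TAT-CRE over PBS, 1 within Cd8 cells, 57 for Cd8 over Cd4 cells, 11 for Trbc1-only over Trbc2-only cells and 7 for Trbc-detected over undetected cells. DESeq2 called 1 gene for TAT-CRE over PBS and 3 for Cd8 over Cd4 cells. For Cd8 over Cd4 cells, 17 were called without the ribosomal RNA genes, 2 with no replicate block, and 2 to 17 when 1 mouse was left out.

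Signs changed mostly for values near 0. Cd3d in Cd8 cells, TAT-CRE over PBS, had a log2 fold change of -0.0751 without a filter, -0.00985 without ribosomal RNA genes and -0.00986 with a minimum of 800 UMIs. For Trbc1-only over Trbc2-only cells, DESeq2, RLE scaling and no replicate block gave 0.00597, 0.0307 and 0.10 for Trac and 0.00122, 0.0342 and 0.15 for Cd3d. For Trbc-detected over undetected cells, DESeq2, RLE scaling, a minimum of 200 UMIs, no mitochondrial limit and no replicate block gave -0.0692, -0.0665, -0.0184, -0.0162 and -0.0376 for Trac and -0.0645, -0.0623, -0.0119, -0.0758 and -0.083 for Cd3e, and no filter gave 0.0754 for Cd3g. The share of double cells, TAT-CRE minus PBS, was -1.95 percentage points as counted, -0.136 at 200 UMIs, -0.0654 at 200 UMIs outside ribosomal RNA genes and -2.21 when 2 UMIs of a segment were needed. The difference in Trbc1 detection by Trbc2 was 2.88 percentage points as counted.

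With 1 mouse left out, log2 fold changes of TAT-CRE over PBS ran from -0.36 to 0.0800 for Trac, -0.13 to 0.45 for Trbc1 and -0.30 to 0.0839 for Cd3d. Within Cd8 cells they ran from -0.38 to 0.19 for Trac, -0.0643 to 0.72 for Trbc1, -0.0727 to 0.37 for Cd3e and -0.22 to 0.23 for Cd3d. Those of Trbc1-only over Trbc2-only cells ran from -0.37 to 0.25 for Trac and -0.34 to 0.28 for Cd3d, and those of Trbc-detected over undetected cells from -0.0628 to 0.0648 for Trac, -0.18 to 0.16 for Cd3e and -0.17 to 0.10 for Cd3g. TAT-CRE minus PBS, double cells ran from -1.04 to 1.01 and cells with either segment from -5.19 to 3.41 percentage points. The difference in Trbc1 detection ran from -0.911 to 0.0973. No replicate block changed no other call.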
